A study of Mus musculus with 12 samples.

Results

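The cytochrome P450 genes of families 1 to 4 were followed in the livers of mice that lack Yap1, and in livers that also lack 1 copy of Wwtr1, the gene of TAZ. The genes were taken by their symbols: every gene of the tables named Cyp, a family number from 1 to 4, a subfamily letter and a gene number was a member, other than Cyp2c70. This gave 79 members of 41743 genes, and 56 of them reached at least 1 TPM (a level relative to the whole library and corrected for gene length) in at least 3 of 12 livers and were tested among 12159 genes.

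The livers were whole livers of female mice aged 3 to 4 months, in 4 groups of 3. YAP KO mice carried Foxa3-Cre and floxed Yap1 on both chromosomes on the C57BL/6 background, and were set against WT (C57BL/6) littermates. YAP KO TAZ HET mice carried in addition 1 floxed copy of Wwtr1 on a mixed C57BL/6 and FVB background, and were set against WT (mixed) littermates. Foxa3-Cre acts in the foregut endoderm, from which hepatocytes and bile duct cells arise. Whole livers also hold blood vessel, stellate and blood-derived cells, in which recombination was not analysed here. Each liver came from 1 mouse, and values are given in the order LM75, LM192 and LM193 for WT (C57BL/6), LM74, LM189 and LM191 for YAP KO, LM226, LM227 and LM230 for WT (mixed), and LM225, LM250 and LM251 for YAP KO TAZ HET.

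P450 enzymes are heme proteins of the endoplasmic reticulum that insert 1 atom of oxygen into fats, steroids, bile acids, drugs and toxins, with electrons passed on by the reductase Por. Families 1 to 3 are known mainly for foreign compounds and steroids, and family 4 for the omega-hydroxylation of fatty acids. Most are made in hepatocytes, many in the cells around the central vein, and each subfamily is known for its own inducers: the aryl hydrocarbon receptor for Cyp1a, CAR and PXR for Cyp2b, Cyp2c and Cyp3a, and PPARα for Cyp4a. In mice several are also sex-dependent, under the pattern of growth hormone release.

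Yap1 itself stood at 28.2 to 33.2 TPM in the 6 WT livers, at 1.67 to 3.72 TPM in YAP KO livers against 8.63 to 11.5 TPM in the YAP KO TAZ HET livers. Wwtr1 stood at 6.26 to 8.38 TPM in WT livers, and rose to 13.3 to 16.7 TPM in YAP KO livers (log2 change 0.73, limma, adjusted p = 0.0020). In YAP KO TAZ HET livers it was at 11.5 to 14.1 TPM (0.26, adjusted p = 0.073), so the whole-liver level does not show the loss of 1 copy in hepatocytes. Each liver adds up to 1000000 TPM by construction, and sequencing depth cannot be read from the values. The hepatocyte markers Alb, Ttr, Apoa1, Hnf4a and Serpina1c were present in every liver and summed to 96540 to 108700 TPM in WT (C57BL/6), 73800 to 81970 TPM in YAP KO, 86790 to 110900 TPM in WT (mixed) and 69160 to 87190 TPM in the YAP KO TAZ HET livers. Alb held most of these sums, at 51588 to 83138 TPM over the 12 livers. Of the 5 markers, 3 fell in YAP KO livers and 2 in YAP KO TAZ HET livers, and none rose. Of all tested genes, 17.3% and 18.4% fell. The 6 macrophage markers all rose in both models, with sums of 122 to 239 TPM in WT livers and 335 to 563 TPM in model livers, and their part in the P450 results was not tested. Of the bile duct markers, Sox9 and Spp1 rose in both models and Epcam fell in YAP KO TAZ HET livers. Krt19 did not pass the test in either model, at 0.216 to 6.39 TPM over WT livers and 0.404 to 3.15 TPM over model livers. Cftr was at most 0.105 TPM and Krt7 at most 0.779 TPM in every liver. The list of 6 genes summed to 28.8 to 59.9 TPM in WT livers, 323 to 742 TPM in YAP KO livers and 98.7 to 218 TPM in the YAP KO TAZ HET livers. Spp1 alone held most of these sums, at 26.0 to 50.7 TPM over WT livers, 303 to 725 TPM in YAP KO livers and 84.4 to 208 TPM in the YAP KO TAZ HET livers. Of the 6 endothelial markers 2 fell in each model and 1 rose in YAP KO TAZ HET livers. All p-values measure the spread between 3 mice of a group. In whole liver RNA, fewer hepatocytes and less RNA per hepatocyte cannot be told apart.

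The P450 genes together made up a smaller part of the liver transcriptome in both models. They summed to 27742, 31268 and 34180 TPM in WT (C57BL/6) livers and to 15695, 16829 and 17236 TPM in YAP KO livers, a ratio of means of 0.534. In the mixed background the sums were 29426, 34527 and 30498 TPM in WT livers and 20835, 16299 and 14300 TPM in the YAP KO TAZ HET livers, a ratio of 0.544 (0.486 without LM225). The groups did not overlap in either comparison. The makeup also changed: Cyp2e1 held 27.6% ± 1.52 (SD, n = 3) of the P450 transcripts in WT (C57BL/6) livers and 9.34% ± 1.23 in YAP KO livers, and Cyp3a11 held 5.56% ± 1.26 and 44.3% ± 2.81. The same shares in the mixed background were 24.4% ± 2.80 and 8.98% ± 2.46 for Cyp2e1, and 7.06% ± 0.406 and 42.1% ± 3.598 for Cyp3a11.

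**Figure D1:**
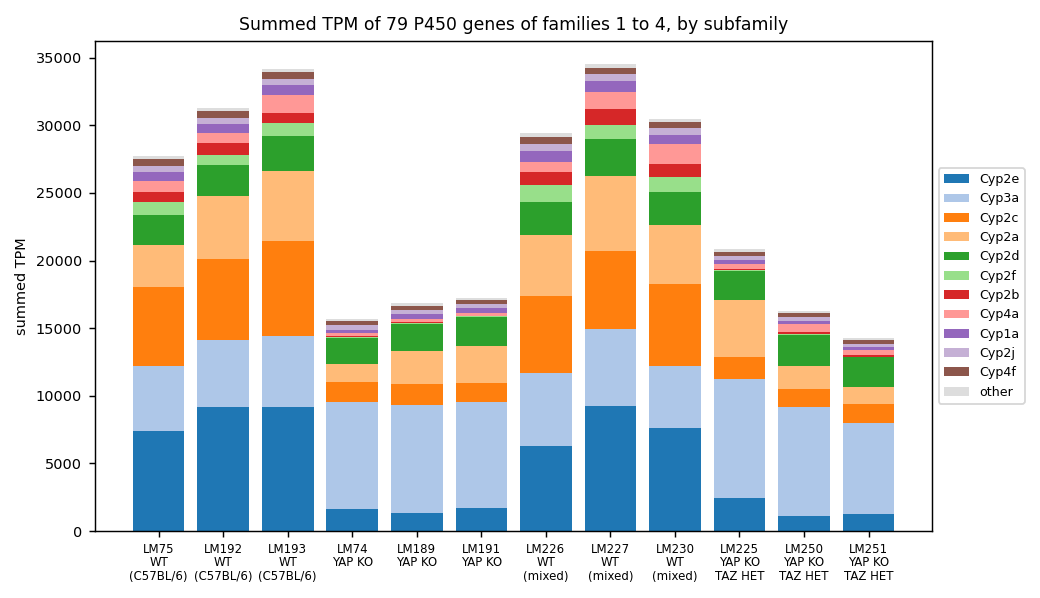
Summed TPM of the 79 P450 genes in each of the 12 livers, stacked by subfamily, with livers and groups on the horizontal axis and TPM on the vertical axis. WT bars reach 27742 to 34527 TPM and model bars 14300 to 20835 TPM, and the Cyp3a segment is the largest segment in all 6 model livers.

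The order of the levels changed with it. Cyp2e1 was the highest member in both WT groups, at 8585 ± 1024 TPM in C57BL/6 and 7725 ± 1490 TPM in mixed livers, far above all others. Behind it in WT (C57BL/6) livers came Cyp3a41a (2196 ± 340 TPM), Cyp2a4 (1874 ± 788), Cyp3a11 (1720 ± 377), Cyp2a5 (1679 ± 365) and Cyp2c69 (1532 ± 267), whose neighbours in this order lie within each other's spread. In YAP KO livers Cyp3a11 came first at 7332 ± 184 TPM, then Cyp2e1 at 1546 ± 186 TPM and Cyp2a5 at 1133 ± 437 TPM, which lie within each other's spread. YAP KO TAZ HET livers had the same first 5 members in the same order, with Cyp3a11 at 7160 ± 946 TPM.

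Gene by gene, 39 of the 56 tested members fell in YAP KO livers, where 17.3% of all tested genes fell, and 9 rose, where 18.7% of all tested genes rose (limma, adjusted p under 0.05). The median change of the 56 members was -1.10 on the log2 scale, beside -0.03 over all tested genes. In YAP KO TAZ HET livers 40 members fell, where 18.4% of all tested genes fell, and 10 rose, beside 19.2% of all tested genes. The median change there was -1.20, beside -0.03 over all genes. Of the members, 38 fell in both models, 7 rose in both, and none rose in 1 model and fell in the other. Over the 56 members the changes in the models had a Pearson r of 0.9614 and a Spearman rho of 0.9746. The share of all tested genes that moved alike in both models, and their correlation, are not given here. The agreement is therefore not shown to be particular to the P450 genes. The 2 models have separate WT livers, and members with shared sequence are not independent points. Filtering touches some counts: 4 members passed it through the model livers (Cyp1b1, Cyp2d12, Cyp4a12b and Cyp4f18, at 1 TPM in fewer than 3 of 6 WT livers) and 4 through the WT livers (Cyp2g1, Cyp3a16, Cyp3a41b and Cyp3a44). Cyp1b1, Cyp4a12b and Cyp4f18 are among the 7 that rose in both models, and the 4 that passed through the WT livers are among the 38 that fell in both.

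**Figure D2:**
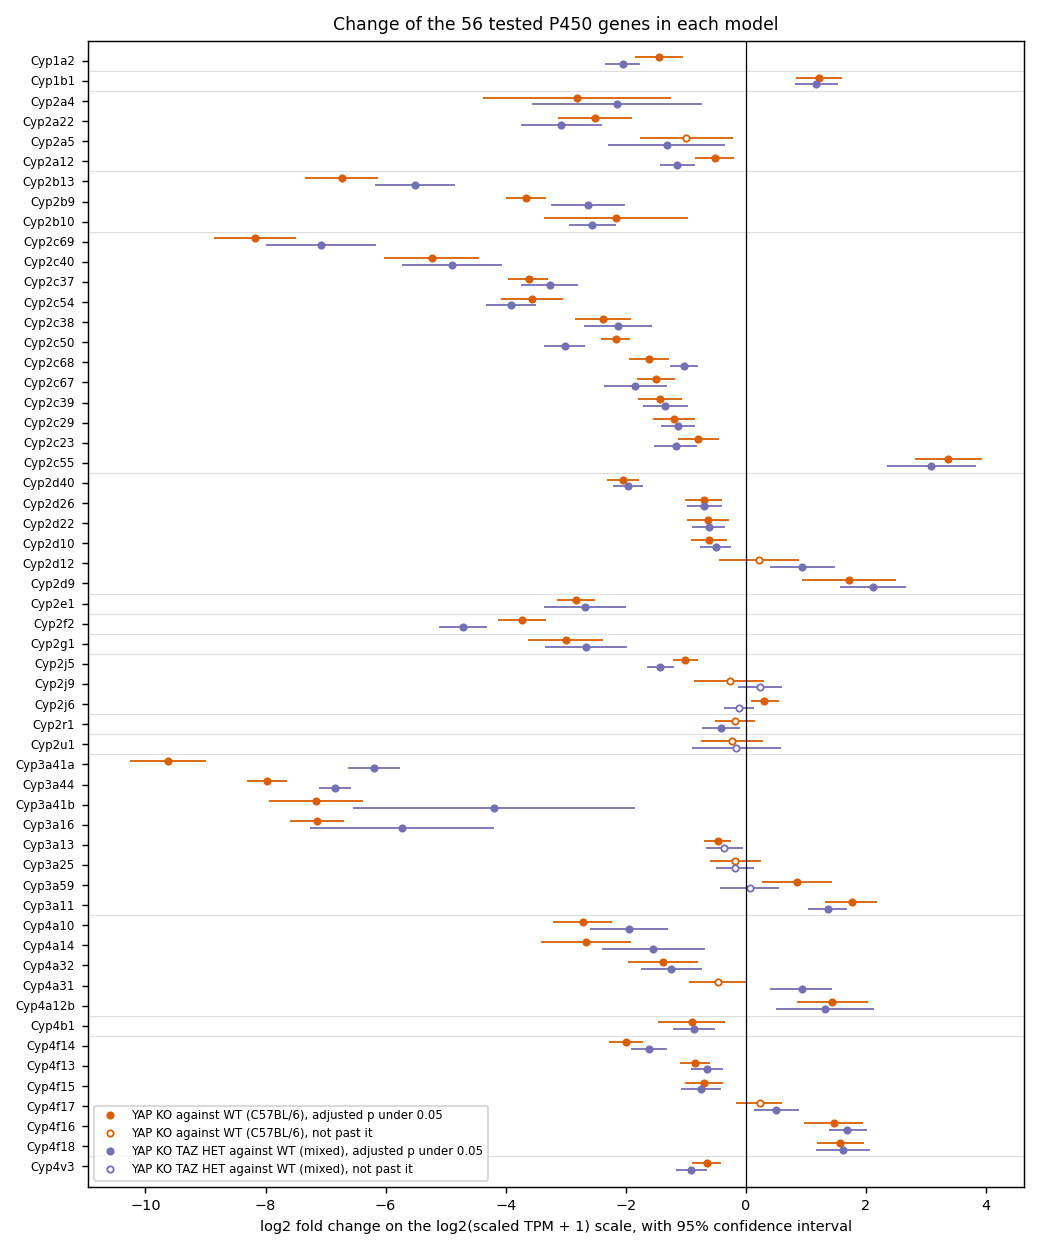
Change of the 56 tested members, grouped by subfamily, in YAP KO livers (orange) and YAP KO TAZ HET livers (purple) against their WT littermates, as log2 fold change with its 95% confidence interval; open points did not pass the adjusted p of 0.05. The falls reach -9.62 for Cyp3a41a, and the rises reach 3.37 for Cyp2c55.

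Very large falls and a rise lay side by side in the Cyp3a subfamily, whose enzymes oxidise steroids, bile acids and many drugs. Apart from Cyp3a13, its members lie in 1 cluster on chromosome 5 (GRCm38, 145345279 to 146113287), and neighbours in it moved in opposite directions. Cyp3a41a (chr5:145694049-145720136, minus strand), a female-predominant gene, stood at 1839, 2516 and 2234 TPM in WT (C57BL/6) livers against 1.23, 3.97 and 2.53 TPM in YAP KO livers. Its log2 change was -9.62 ± 0.27 (SE; adjusted p = 6.9e-07). In the mixed background it stood at 2218, 2318 and 1754 TPM in WT livers against 48.7, 27.9 and 30.04 TPM in the YAP KO TAZ HET livers, a change of -6.19 ± 0.19 (adjusted p = 1.6e-06). The groups lie far apart in both backgrounds.

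Cyp3a44, Cyp3a16 and Cyp3a41b, which are also female-predominant, flank Cyp3a41a and fell with it. For Cyp3a44 the WT livers held 105 to 297 TPM and all 6 model livers under 1 TPM (0.0608 to 0.324), with changes of -7.98 ± 0.14 in YAP KO livers and -6.84 ± 0.12 in YAP KO TAZ HET livers. Cyp3a16 was listed at 0 in 3 of 6 model livers and at 0.123 to 0.147 TPM in the others, with changes of -7.15 ± 0.20 and -5.73 ± 0.66. One WT (mixed) liver stood apart here: LM230 had 12.5 TPM of Cyp3a16, beside 88.8 and 98.2 TPM in its littermates, and 12.2 TPM of Cyp3a41b, beside 119 and 162 TPM. The Cyp3a41b transcript is 99.7% identical to that of Cyp3a41a, so reads could be split between them in more than 1 way. Their sum was 1767 to 2779 TPM over WT livers, 1.91 to 3.97 TPM in YAP KO livers and 35.5 to 48.9 TPM in the YAP KO TAZ HET livers.

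The next gene of the cluster, Cyp3a11 (chr5:145854426-145879964, minus strand), went the other way. It is the main Cyp3a drug- and bile acid-oxidising enzyme of mouse liver and a known target of PXR. Its levels were 1826, 1301 and 2032 TPM in WT (C57BL/6) livers and 7373, 7492 and 7130 TPM in YAP KO livers, a 4.26-fold higher mean TPM. The log2 change after scaling was 1.76 ± 0.19 (adjusted p = 0.00035). The mixed background gave 2208, 2315 and 2126 TPM in WT livers and 7968, 7391 and 6120 TPM in the YAP KO TAZ HET livers, a change of 1.36 ± 0.14 (adjusted p = 0.00034). Beyond it lie Cyp3a25, which did not pass the test in either model (-0.18 ± 0.18 and -0.18 ± 0.14), and Cyp3a59, which rose in YAP KO livers (0.85 ± 0.25, adjusted p = 0.030) and was at 0.07 ± 0.21 in YAP KO TAZ HET livers. These are 97.0% identical in transcript sequence, and the adjusted p of Cyp3a59 ranged from 0.0032 to 0.0997 over 14 alternatives. Cyp3a13, which lies apart from the cluster, fell by 0.47 on the log2 scale in YAP KO livers and was at -0.36 ± 0.14 in YAP KO TAZ HET livers, where it did not pass the test.

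**Figure D3:**
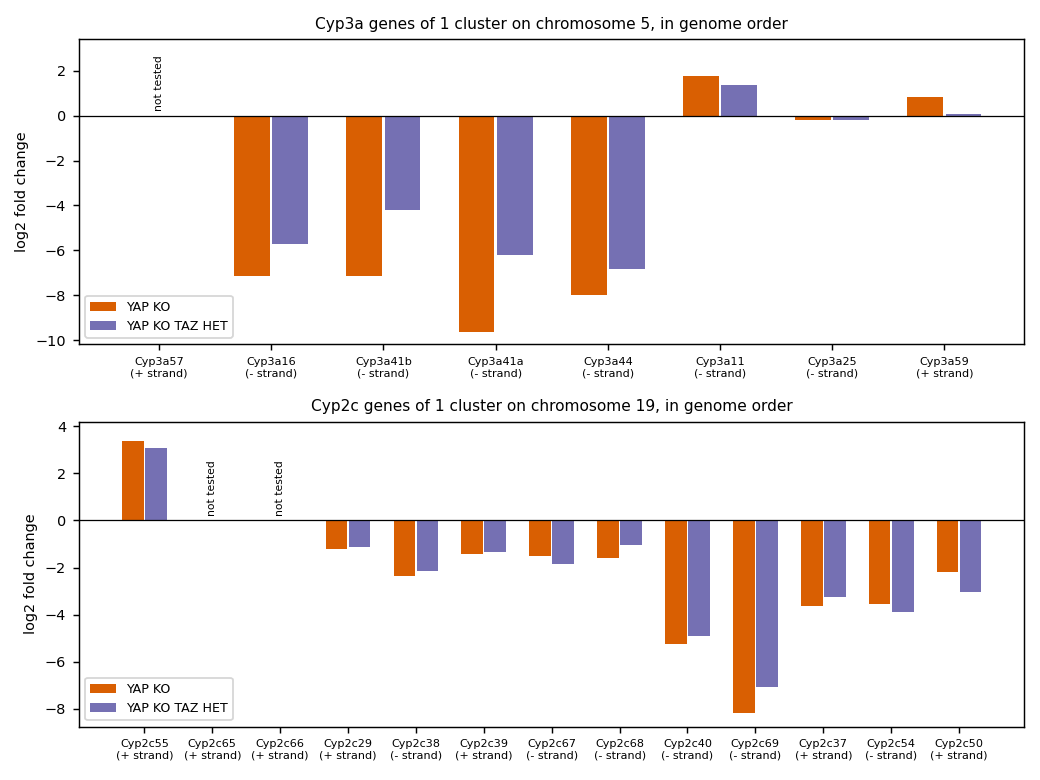
Log2 fold change of the Cyp3a genes of the chromosome 5 cluster (upper panel) and of the Cyp2c genes of the chromosome 19 cluster (lower panel), in genome order, in YAP KO (orange) and YAP KO TAZ HET (purple) livers. In the upper panel 4 adjacent genes reach -4.19 to -9.62 and their neighbour Cyp3a11 lies at 1.76 and 1.36; in the lower panel Cyp2c55 at the edge lies at 3.37 and 3.09 and the other tested genes lie below 0.

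The start regions of these neighbours are shown because genes that fell and the gene that rose lie side by side and are close relatives. Promoter sequences (RefSeq, GRCm38.p6, 250 bases before to 50 after the start) were found for 64 of the 79 members. The lines below hold 150 bases each, from base 170 before the RefSeq start, on the minus strand of chr5, with ATCAAT (a core letter run of HNF6 sites) and AGGTCA (a nuclear receptor half-site) in capitals.
Cyp3a16 (chr5:145469744-145469893): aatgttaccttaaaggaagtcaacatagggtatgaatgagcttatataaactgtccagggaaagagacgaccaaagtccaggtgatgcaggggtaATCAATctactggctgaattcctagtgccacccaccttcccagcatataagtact
Cyp3a41a (chr5:145720157-145720306): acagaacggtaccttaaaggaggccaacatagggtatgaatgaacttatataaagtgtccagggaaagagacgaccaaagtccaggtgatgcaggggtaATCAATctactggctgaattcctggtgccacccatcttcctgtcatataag
Cyp3a44 (chr5:145805895-145806044): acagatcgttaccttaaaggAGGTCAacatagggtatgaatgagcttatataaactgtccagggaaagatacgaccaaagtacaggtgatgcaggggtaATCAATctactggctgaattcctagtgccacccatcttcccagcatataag
Cyp3a11 (chr5:145879875-145880024): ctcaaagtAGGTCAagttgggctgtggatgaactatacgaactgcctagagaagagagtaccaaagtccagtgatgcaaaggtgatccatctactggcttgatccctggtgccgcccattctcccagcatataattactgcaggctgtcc
Over the whole 300 bases, the Cyp3a41a promoter is 97.3% identical to that of Cyp3a41b, 93.0% to Cyp3a44, 92.4% to Cyp3a16 and 71.9% to Cyp3a11. The 3 printed promoters of genes that fell, and that of Cyp3a41b, hold ATCAAT, and the printed Cyp3a11 window does not.

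Over all 32851 promoters of the table, 7.5% hold ATCAAT on either strand, and 14 of 71 promoters of members (19.7%) do. AGGTCA is in 16.3% of all promoters and in 26.8% of those of members. GGAATG, the letter run that TEAD factors, the DNA-binding partners of YAP, are known for, is in 14.7% of all and 14.1% of the members' promoters. TTCNNNGAA, the STAT5 letter run, is in 8.3% and 5.6%, and GCGTG, the core of aryl hydrocarbon receptor sites, in 32.4% and 19.7%. All motifs were searched on both strands. The 13 tested members whose promoter holds ATCAAT are Cyp1a2, Cyp4f14, Cyp4f15, the 4 Cyp3a genes named and 6 of the Cyp2c genes. All 13 fell in YAP KO livers, but Cyp3a16, Cyp3a41b and Cyp3a44 among them passed the filter through the WT livers, so that their fall was fixed by it. Of the 32 tested members whose promoter lacks ATCAAT, 20 fell and 8 rose, beside 17.3% and 18.7% of all tested genes. A link between the motif and the falls was not tested. Several of the promoters with ATCAAT are close copies of each other, and a match is not a bound site.

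The Cyp2c subfamily, whose enzymes oxidise fatty acids such as arachidonic acid, steroids and drugs, showed the same division. Of 12 tested genes 11 fell and Cyp2c55 rose in both models. Cyp2c69 (chr19:39842814-39886799, minus strand) stood at 1234, 1611 and 1751 TPM in WT (C57BL/6) livers against 3.05, 6.89 and 7.79 TPM in YAP KO livers, a log2 change of -8.18 ± 0.30 (adjusted p = 1.9e-06). In the mixed background it went from 1006, 802 and 1012 TPM to 17.7, 4.61 and 4.92 TPM, a change of -7.08 ± 0.39 (adjusted p = 2.3e-05). Cyp2c40, its neighbour, went from 772, 527 and 774 TPM to 13.1, 24.6 and 33.0 TPM in YAP KO livers, and the change in YAP KO TAZ HET livers was -4.90 ± 0.36. The adjacent Cyp2c67 and Cyp2c68 fell less, by 1.5 and 1.61 on the log2 scale in YAP KO livers and by 1.84 and 1.03 in YAP KO TAZ HET livers. The transcripts of these 4 genes are 96.4% to 98.0% identical, and their sum fell from 2764 to 3410 TPM in WT (C57BL/6) livers to 317 to 394 TPM in YAP KO livers.

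Cyp2c37, Cyp2c54 and Cyp2c50 at the other edge of the cluster fell too. Cyp2c37 stood at 705, 843 and 1053 TPM in WT (C57BL/6) livers against 91.7, 91.8 and 81.2 TPM in YAP KO livers, a change of -3.62 ± 0.14 (adjusted p = 2.8e-06), and the change in YAP KO TAZ HET livers was -3.27 ± 0.20. Cyp2c29, a CAR-inducible gene in the middle of the cluster, fell by 1.20 and 1.13 on the log2 scale. Cyp2c55 had the largest log2 rise of the members with 1 TPM added to every value; as a ratio of mean TPM, Cyp4a12b, at most 0.130 TPM in WT livers, rose more. Cyp2c55 stood at 4.86, 2.39 and 3.92 TPM in WT (C57BL/6) livers against 66.8, 67.1 and 44.6 TPM in YAP KO livers, a change of 3.37 ± 0.24 (adjusted p = 5.0e-05). In WT (mixed) livers it stood at 7.70, 4.16 and 2.76 TPM and in YAP KO TAZ HET livers at 40.1, 70.8 and 63.4 TPM, a change of 3.09 ± 0.32 (adjusted p = 0.00035).

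The last 150 bases before the start of Cyp2c55 and of 3 of the genes that fell are given as members of 1 cluster that moved in opposite directions. ATCAAT and its reverse complement ATTGAT, which overlap in Cyp2c37, are in capitals. These 3 genes are not neighbours of Cyp2c55, which lies first in the genome order of the cluster, while Cyp2c69, Cyp2c37 and Cyp2c50 lie at places 10, 11 and 13. All 3 genes that fell are among the Cyp2c genes whose promoter holds ATCAAT, and other Cyp2c genes fell without it. The printed regions are on the plus strand of chr19 but for Cyp2c69.
Cyp2c55 (chr19:39006869-39007018): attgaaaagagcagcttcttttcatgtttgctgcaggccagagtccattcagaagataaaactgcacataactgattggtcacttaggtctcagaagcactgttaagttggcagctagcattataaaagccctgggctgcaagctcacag
Cyp2c69 (chr19:39886770-39886919): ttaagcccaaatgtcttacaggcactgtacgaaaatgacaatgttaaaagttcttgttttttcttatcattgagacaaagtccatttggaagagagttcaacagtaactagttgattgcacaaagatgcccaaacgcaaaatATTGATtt
Cyp2c37 (chr19:39992274-39992423): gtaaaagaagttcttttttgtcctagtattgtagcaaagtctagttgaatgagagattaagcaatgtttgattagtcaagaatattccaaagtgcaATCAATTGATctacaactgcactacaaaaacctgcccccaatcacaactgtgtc
Cyp2c50 (chr19:40089529-40089678): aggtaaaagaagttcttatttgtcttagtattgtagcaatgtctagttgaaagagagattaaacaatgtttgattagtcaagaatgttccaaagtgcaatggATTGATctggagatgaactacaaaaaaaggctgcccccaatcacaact
The promoters of Cyp2c37 and Cyp2c50 are 86.6% identical over 300 bases, and that of Cyp2c69 is 50.3% identical to Cyp2c37 and 49.4% to Cyp2c55.

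Genes known for a sex bias were looked at next. All 7 female-predominant genes fell in both models, where 17.3% and 18.4% of all tested genes fell, but Cyp3a16, Cyp3a41b and Cyp3a44 passed the filter through the WT livers, so that their fall was fixed by it. The calls of Cyp2a4 (both models) and Cyp3a41b (YAP KO TAZ HET) were lost under some alternatives. Besides the 4 Cyp3a genes the list holds Cyp2b9, Cyp2b13 and Cyp2a4, steroid and drug oxidising enzymes of the chromosome 7 cluster. Cyp2b13 went from 226, 394 and 292 TPM to 1.97, 4.07 and 1.70 TPM in YAP KO livers (-6.73 ± 0.27, adjusted p = 2.8e-06), and from 345, 496 and 407 TPM to 6.82, 15.7 and 9.71 TPM in the YAP KO TAZ HET livers (-5.51 ± 0.29). Cyp2b9 fell by 3.66 and by 2.63 on the log2 scale, with 445 to 653 TPM over WT livers, 38.5 to 54.2 TPM in YAP KO livers and 83.7 to 174 TPM in the YAP KO TAZ HET livers. Cyp2b10, the best known CAR target, is no sex-list member and fell by 2.16 and by 2.56 on the log2 scale, from 11.6 to 39.7 TPM over WT livers to 2.03 to 7.01 TPM over model livers.

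Of the male-predominant genes, Cyp2d9 rose in both models, where 18.7% and 19.2% of all tested genes rose. Cyp2d9, a steroid hydroxylase of male liver, stood at 54.6, 27.5 and 25.9 TPM in WT (C57BL/6) livers against 223, 97.6 and 142 TPM in YAP KO livers, a change of 1.72 ± 0.34 (adjusted p = 0.0060). In the mixed background it went from 30.4, 30.3 and 54.1 TPM to 194, 206 and 212 TPM, a change of 2.12 ± 0.24 (adjusted p = 0.00052). Cyp4a12b, a fatty acid hydroxylase, was at 0 to 0.130 TPM in WT livers and at 0.744 to 4.57 TPM in model livers, with changes of 1.44 ± 0.26 and 1.32 ± 0.35, and it passed the filter through the model livers alone, so that its rise was fixed by the filter. Cyp4a12a, the third gene of the male list, was not tested; it reached 1.24 TPM in 1 WT (mixed) liver and stayed under 1 TPM in the others. All livers are from females, and males were not analysed here.

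**Figure D4:**
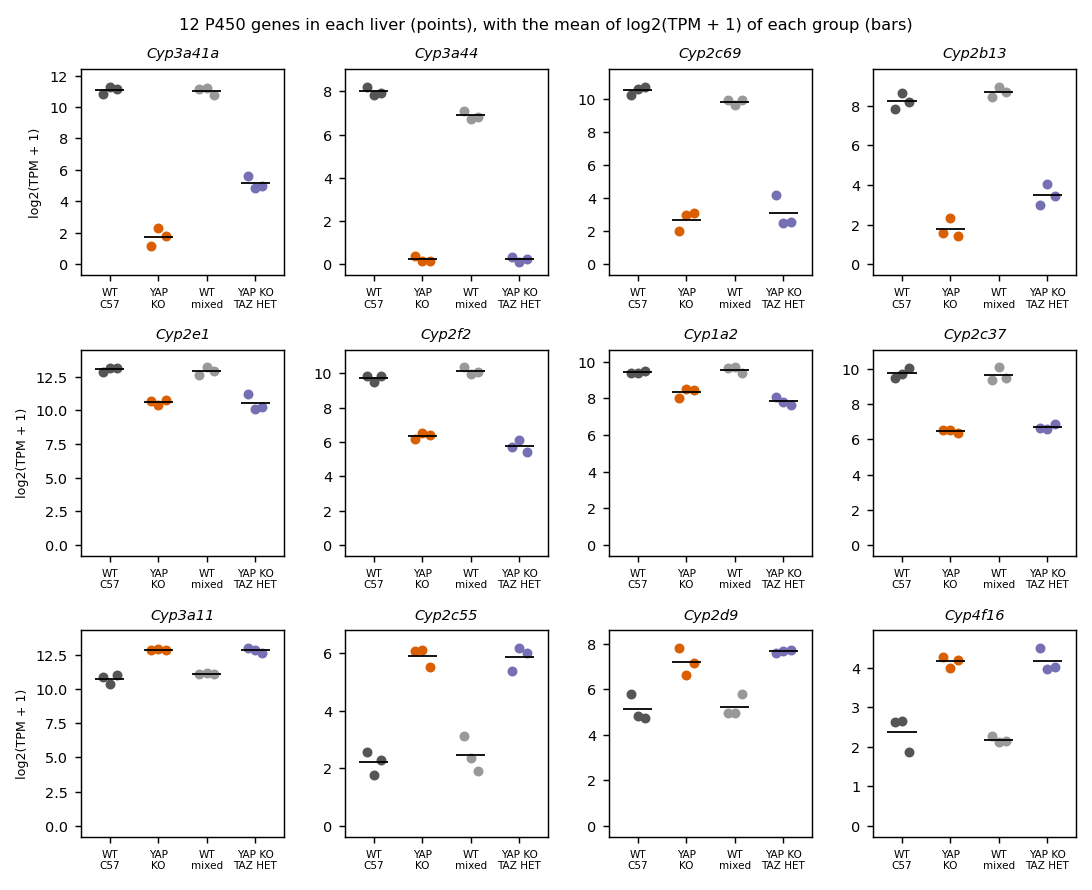
Levels of 12 members in each liver, as log2(TPM + 1), with 1 point per liver and the group mean as a bar. Model livers lie below both WT groups for the first 8 genes and above them for Cyp3a11, Cyp2c55, Cyp2d9 and Cyp4f16, with no overlap between a model and its WT littermates.

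Of the genes known for their position in the lobule, the 1 periportal gene and most of the 5 pericentral genes fell. Cyp2e1, the ethanol and acetone oxidising enzyme of pericentral hepatocytes, stood at 7403, 9188 and 9164 TPM in WT (C57BL/6) livers against 1609, 1336 and 1693 TPM in YAP KO livers, a change of -2.83 ± 0.14 (adjusted p = 7.2e-06). In the mixed background it went from 6273, 9250 and 7652 TPM to 2416, 1094 and 1236 TPM, a change of -2.68 ± 0.29 (adjusted p = 0.00045). Cyp1a2, which oxidises aromatic amines and caffeine, fell from 663 to 826 TPM over WT livers to 261 to 364 TPM in YAP KO livers (-1.44 ± 0.17) and to 201 to 271 TPM in the YAP KO TAZ HET livers (-2.05 ± 0.12). Of the 5 pericentral genes 3 fell in YAP KO livers and 4 in YAP KO TAZ HET livers, where 17.3% and 18.4% of all tested genes fell. One of the 4, Cyp2a5, kept its call under 6 of 15 alternatives. Cyp3a11 rose in both models. Cyp2f2, a naphthalene oxidising enzyme of periportal hepatocytes and the single gene of that list, went from 921, 730 and 917 TPM to 70.5, 92.9 and 82.7 TPM in YAP KO livers, a change of -3.73 ± 0.17 (adjusted p = 5.9e-06). In YAP KO TAZ HET livers it stood at 52.3, 67.4 and 41.6 TPM beside 1307, 1013 and 1076 TPM, a change of -4.71 ± 0.17 (adjusted p = 2.9e-06).

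The genes known as targets of the foreign compound receptors did not move as 1 group. Of the 5 genes of the CAR and PXR list, Cyp3a11 and Cyp2c55 rose and Cyp2b10, Cyp2c29 and Cyp2c37 fell, in both models. The gene of CAR, Nr1i3, stood at 120 to 311 TPM over WT livers, and fell to 41.0 to 64.4 TPM in YAP KO livers (-2.32, adjusted p = 0.00079) and to 66.1 to 88.7 TPM in the YAP KO TAZ HET livers (-1.85, adjusted p = 0.00075). The gene of PXR, Nr1i2, did not pass the test, at 0.11 and 0.01 on the log2 scale. Of the 9 regulators looked at, 5 fell in both models on scaled values (Nr1i3, Ppara, Cebpa, Rxra and Nr3c1) and none rose. The scaled log2 changes were -0.39 and -0.37 for Nr3c1, and -0.5 and -0.43 for Rxra. Before scaling, Nr3c1 and Rxra overlapped between WT and model livers in both backgrounds. Nr3c1 stood at 21.8 to 23.0 TPM in WT littermates and 21.2 to 22.4 TPM in YAP KO livers. For YAP KO TAZ HET livers it was 21.9 to 24.5 TPM, beside 21.3 to 29.7 TPM in WT littermates. Beside these small lists, 17.3% of all tested genes fell and 18.7% rose in YAP KO livers, and 18.4% fell and 19.2% rose in YAP KO TAZ HET livers.

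For the aryl hydrocarbon receptor, Cyp1b1 rose and Cyp1a2 fell. Cyp1b1, an enzyme found largely outside hepatocytes, stood at 0.137 to 0.263 TPM over WT livers and at 1.53 to 2.69 TPM over model livers, with changes of 1.21 ± 0.17 (adjusted p = 0.0011) and 1.17 ± 0.15 (adjusted p = 0.0011). It passed the filter through the model livers alone, so that its rise was fixed by the filter. Cyp1a1, the gene most used as a readout of this receptor, reached 1.102 TPM in 1 WT (mixed) liver, was under 1 TPM in the other 11 livers and was not tested. Markers of stellate cells and fibroblasts, in which Cyp1b1 is also made, summed to 111 to 145 TPM over WT livers and to 233 to 338 TPM over model livers. Of the 6, Col1a1, Pdgfrb and Dcn rose in both models, Lrat fell in YAP KO livers (-0.84) and was at -0.47 in YAP KO TAZ HET livers, and Des and Reln did not pass the test. Their part in the rise was not tested.

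The fatty acid hydroxylases that PPARα induces mostly fell. Cyp4a10 stood at 378, 434 and 675 TPM in WT (C57BL/6) livers against 84.9, 90.1 and 104 TPM in YAP KO livers, a change of -2.72 ± 0.21 (adjusted p = 7.0e-05), and the change in YAP KO TAZ HET livers was -1.95 ± 0.28. Cyp4a14 fell by 2.67 and 1.54 on the log2 scale, and in the mixed background the groups overlapped, at 344 to 745 TPM in WT livers and 175 to 355 TPM in the YAP KO TAZ HET livers. Cyp4a32 fell by 1.38 and 1.24. Cyp4a31 did not follow: it was at 6.26 to 10.8 TPM in WT (C57BL/6) and 6.12 to 7.45 TPM in YAP KO livers (-0.47 ± 0.21, adjusted p = 0.11), and rose in YAP KO TAZ HET livers, from 3.01 to 5.77 TPM to 10.7 to 12.1 TPM (0.93 ± 0.22, adjusted p = 0.013; 0.053 without LM251). Transcripts of Cyp4a10, Cyp4a31 and Cyp4a32 are 96.0% to 97.2% identical. Ppara itself fell by 1.55 and 1.88 on the log2 scale.

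The Cyp4f genes, which hydroxylate leukotrienes and long-chain fatty acids, divided. Cyp4f13, Cyp4f14 and Cyp4f15 fell in both models, led by Cyp4f14 with 242 to 322 TPM over WT livers, 84.5 to 99.5 TPM in YAP KO livers (-1.99 ± 0.12) and 101.1 to 116 TPM in the YAP KO TAZ HET livers (-1.61 ± 0.13). Cyp4f16 and Cyp4f18 rose in both. Cyp4f16 stood at 5.12, 5.32 and 2.67 TPM in WT (C57BL/6) livers against 18.3, 14.9 and 17.4 TPM in YAP KO livers (1.46 ± 0.22, adjusted p = 0.0016), and rose by 1.69 ± 0.14 in YAP KO TAZ HET livers; its transcript is 96.1% identical to that of Cyp4f37. Cyp4f18, known for leukotriene B4 breakdown in mouse neutrophils, went from 0.347 to 0.997 TPM over WT livers to 3.74 to 5.98 TPM over model livers (1.57 ± 0.17 and 1.61 ± 0.19). Since it passed the filter through the model livers alone, its rise was fixed by the filter. The neutrophil and monocyte markers S100a8, S100a9, Ly6c2, Ccr2 and Itgam summed to 5.395 to 14.6 TPM over WT livers and to 12.7 to 56.3 TPM over model livers. All 5 rose in YAP KO livers and 3 of them in YAP KO TAZ HET livers, where 18.7% and 19.2% of all tested genes rose. Their part in the rise of Cyp4f18 was not tested.

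The Cyp2d genes together held 2253 to 2708 TPM over WT livers and 1969 to 2269 TPM over model livers. Cyp2d26, the highest of them, fell by 0.70 and 0.69 on the log2 scale, and under quantile normalization the changes were -0.23 and -0.15 and no longer passed the test. Cyp2d40, Cyp2d22 and Cyp2d10 fell as well. Cyp2d12, which passed the filter through the model livers, rose in YAP KO TAZ HET livers from levels under 1 TPM (0.94 ± 0.23, adjusted p = 0.016). It was at 0.22 ± 0.29 in YAP KO livers, and a difference between the models was not shown for it. Cyp2j5, an arachidonic acid epoxygenase, fell by 1.01 and by 1.43. Cyp2j6 passed the test in YAP KO livers (0.31 ± 0.10, adjusted p = 0.046, and -0.11 ± 0.11 in the other model), and Cyp4f17 in YAP KO TAZ HET livers (0.51 ± 0.16, adjusted p = 0.041, and 0.23 ± 0.17 in the other); a difference between the models was not shown for either (adjusted p = 0.907 and 0.9985). Next to these, Cyp2g1, an enzyme best known from the olfactory mucosa, fell by 3.00 and 2.66 from 7.45 to 17.9 TPM over WT livers to 0.336 to 2.22 TPM over model livers. It passed the filter through the WT livers. Cyp4b1 fell by 0.90 and 0.87 and Cyp4v3 by 0.65 and 0.91. Cyp2r1, a vitamin D 25-hydroxylase, stood at 10.0 to 16.2 TPM over all 12 livers and passed the test in YAP KO TAZ HET livers (-0.41 ± 0.14, adjusted p = 0.046; in YAP KO livers -0.18 ± 0.14), and Cyp2u1 did not pass it in either model (-0.23 ± 0.22 and -0.16 ± 0.32). The 23 members not tested reached at most 1.24 TPM, and 9 of them were listed at 0 in every liver.

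Genes that serve all P450 enzymes had median changes nearer to 0 than the members, a difference that was not tested. Over all tested genes 17.3% fell in YAP KO livers and 18.4% in YAP KO TAZ HET livers. Of 6 genes of the electron supply, 3 fell in YAP KO livers and 5 in YAP KO TAZ HET livers, with median changes of -0.46 and -0.55. Por, the reductase, was at -0.69 (adjusted p = 0.084) and fell by 1.05 (adjusted p = 0.040). Of 8 genes of heme synthesis 4 fell in each model: Cpox, by 1.55 and 1.56, Urod and Fech fell in both, Alad in YAP KO livers and Alas1, the rate-limiting enzyme of heme synthesis, in YAP KO TAZ HET livers (-2.40, adjusted p = 0.013, and -1.53, adjusted p = 0.053, in YAP KO livers). These calls are made on scaled values. Before scaling, Urod and Fech overlapped between WT and model livers in both backgrounds. Fech stood at 35.9 to 37.6 TPM in WT (C57BL/6) and 36.9 to 39.0 TPM in YAP KO livers, and Urod at 93.8 to 98.9 and 88.5 to 94.5 TPM. In heme breakdown, Hmox1, the heme oxygenase that stress induces, rose from 18.5 to 28.5 TPM over WT livers to 65.8 to 84.4 TPM over model livers (1.39 and 1.47).

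Cyp2a4 and Cyp2a5 varied widely between livers of 1 group. They encode a steroid 15α-hydroxylase and a coumarin hydroxylase with 98.2% identical transcripts, and reads could be split between them in more than 1 way. Cyp2a5 stood at 1298, 2025 and 1714 TPM in WT (C57BL/6) livers against 639, 1292 and 1469 TPM in YAP KO livers, which overlap (-0.99 ± 0.33, adjusted p = 0.0503, which misses the threshold). In the mixed background it stood at 1878, 2920 and 1679 TPM, and at 2204, 863 and 612 TPM for YAP KO TAZ HET livers, of which LM225 lay within the WT range (-1.32 ± 0.42, adjusted p = 0.042, and 0.0027 to 0.13 over 15 alternatives). Cyp2a4 was at 1620, 343 and 214 TPM in the YAP KO TAZ HET livers beside 1658 to 1819 TPM in WT (mixed) livers (-2.15 ± 0.61, adjusted p = 0.027, and 0.0001 to 0.087 over 15 alternatives, of which 7 kept the call). Without LM225 the changes were -2.97 for Cyp2a4 and -1.81 for Cyp2a5. In YAP KO livers Cyp2a4 was at 100.7, 516 and 624 TPM, beside 1084, 1878 and 2660 TPM (-2.81 ± 0.68, adjusted p = 0.014). Cyp2a22 and Cyp2a12 fell in both models.

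Genes with a strong daily rhythm were looked at after these values were seen, since Cyp2a4, Cyp2a5, Por and Alas1 are known to be driven by the clock output factors Dbp, Tef and Hlf. Dbp stood at 182 to 248 TPM over the 6 WT livers against 10.4, 2.052 and 48.0 TPM in YAP KO livers. In YAP KO TAZ HET livers it was at 11.2 and 14.1 TPM in LM250 and LM251 and at 161 TPM in LM225. Arntl, the clock activator whose rhythm opposes that of Dbp, stood at 0.437 to 1.51 TPM over WT livers, at 8.51 to 21.5 TPM in YAP KO livers, at 16.4 and 12.7 TPM in LM250 and LM251 and at 2.22 TPM in LM225. Per3 gave 13.6 to 27.1 TPM over WT livers, 14.6 TPM in LM225 and 0.499 to 4.05 TPM in the other 5 model livers. Alas1 was at 269 TPM in LM225 and at 49.9 and 46.5 TPM in LM250 and LM251, and Por at 471, 184 and 179 TPM. The hour at which the livers were taken is not given in the sources used here, and the part of the clock genes in the P450 results was not tested. The count of members that fell in YAP KO TAZ HET livers without LM225, the liver with clock gene levels nearest WT, was 40, and the count that rose was 10. The livers that remain, LM250 and LM251, are those with clock gene levels far from WT. This count therefore cannot show whether the P450 changes depend on the clock genes.

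**Figure D5:**
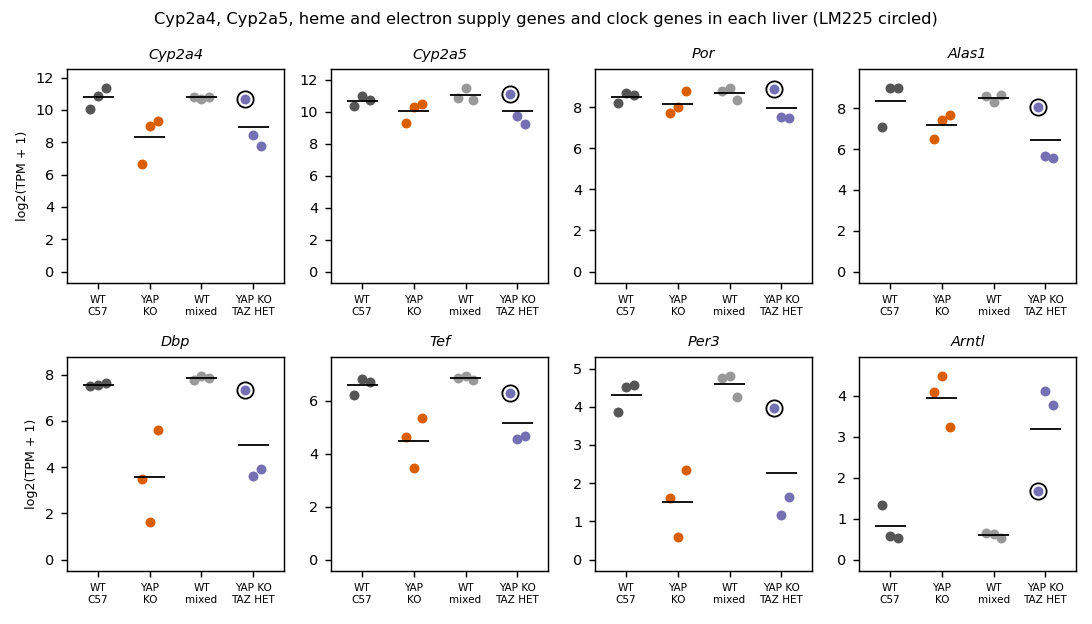
Levels of Cyp2a4, Cyp2a5, Por, Alas1 and of the clock genes Dbp, Tef, Per3 and Arntl in each liver, as log2(TPM + 1), with 1 point per liver, the group mean as a bar and liver LM225 circled. LM225 lies above LM250 and LM251 for the first 7 genes and below them for Arntl.

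The change of Cyp3a41a differed between the models, and it was the single member past the threshold for that difference, where 0.0576% of all tested genes (7) were. Its fall was larger in YAP KO livers by 3.44 ± 0.37 on the log2 scale (adjusted p = 0.0040, and 0.00075 to 0.031 over 19 alternatives), since YAP KO livers held 1.23 to 3.97 TPM and YAP KO TAZ HET livers 27.9 to 48.7 TPM. Cyp3a44 came next, at -1.17 ± 0.18 (adjusted p = 0.052). It was also the single member that differed between the WT groups, where 0.173% of all tested genes (21) did: 297, 230 and 243 TPM in WT (C57BL/6) livers and 136, 105 and 113 TPM in WT (mixed) livers, a difference of -1.18 ± 0.14 (adjusted p = 0.026, and 0.0013 to 0.13 over 14 alternatives, of which 8 kept the call). Its level was under 1 TPM in all 6 model livers. At an unadjusted p under 0.05, 13 of 56 members differed between the models, beside 555 of 12159 genes, and 9 members differed between the WT groups, beside 708 genes. Of the 13, Cyp3a41b, Cyp2b13, Cyp2b9 and Cyp2c68 had lower values of the difference, that is larger falls in YAP KO livers (-3.00, -1.24, -1.04 and -0.59), and Cyp2f2, Cyp2c50, Cyp1a2, Cyp2a12 and Cyp2j5 larger falls in YAP KO TAZ HET livers (0.97, 0.84, 0.60, 0.60 and 0.41). The others were Cyp4a31 (-1.40) and Cyp2j6 (0.41), and none of these 11 passed the adjusted threshold. The models also differ in background and in how much Yap1 transcript was left. Remaining Yap1 ranged from 1.67 to 3.72 TPM for YAP KO and from 8.63 to 11.5 TPM for the other model. The paper also gives different floxed Yap1 stocks, and lists an EYFP reporter allele only for YAP KO mice. The copy of Wwtr1, the background, the stock, the reporter and the remaining Yap1 cannot be told apart in this difference. Their parts in it were not tested.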

How the data were processed

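RNA of 12 whole livers was sequenced. With CLC Genomics Workbench and the GRCm38.p6 build, the authors made the deposited TPM per gene and liver; how reads that match several genes were counted is not given in the sources used here. Columns of the authors' own comparisons (fold changes, p-values and group means) were not used. Members and lists were chosen with earlier results of these data known. TPM was divided by a trimmed-mean scaling factor per liver (30% of log ratios and 5% of levels trimmed), 1 was added, and log2(TPM + 1), which understates changes of low genes, went into limma 3.58.1 under R 4.3.3 (eBayes with trend; two-sided; Benjamini-Hochberg over 12159 genes; threshold 0.05). Each model was fitted with its own 6 livers; the difference between the models used all 12. The steps were tested on simulated data. Named members were the highest of each subfamily, the 8 largest rises and falls past the threshold per model, those past it between models or WT groups, and those in the lists; any other member given with values was chosen after its values were seen. Alternatives are in the closing section. Near-identical transcripts (GENCODE M21) (blastn 2.17.0) were pairs with 90% identity across 30% of 1 transcript: 28 of 56 tested members have one. TPM keeps no read count per liver, so precision was taken from the spread between 3 mice.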

Additional observations from a re-analysis of the deposited data

Results flagged for a closer look

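Cyp3a41a was picked out because its change differed between the models in a test of that difference: -3.44 ± 0.37 on the log2 scale, as the change in YAP KO livers minus that in YAP KO TAZ HET livers (limma, adjusted p = 0.0040). The values behind it are 1.23, 3.97 and 2.53 TPM in YAP KO livers and 48.7, 27.9 and 30.04 TPM in the YAP KO TAZ HET livers, and the 2 WT groups overlapped at 1839 to 2516 and 1754 to 2318 TPM. Summed with its near-identical copy Cyp3a41b, the levels were 1.91 to 3.97 TPM in YAP KO livers and 35.5 to 48.9 TPM in the YAP KO TAZ HET livers.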

How the results depend on the processing

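Counts of changed members under other settings (pseudocount 0.1, other filters, no scaling, quantile normalization, robust shrinkage, 1 fit of 12 livers, each liver left out, adjusted p under 0.01) stayed within 1.5 times the values given, except as follows. At an adjusted p under 0.01, 6 members rose in YAP KO TAZ HET livers in place of 10. For the difference between the models, 2 members passed in place of 1 with a minimum of 5 TPM, with quantile normalization and with robust shrinkage, and 1 to 2 with a liver left out (2 without LM74); the added gene was Cyp3a44, at -1.17, -1.11, -1.17 and -1.25. Between the WT groups, 0 members passed without a filter or at 0.01, and 0 to 1 with a liver left out (0 without each of LM192, LM193, LM226, LM227 and LM230). With a liver left out, 44 to 49 members changed in YAP KO livers (7 to 9 up, 37 to 40 down) and 44 to 50 in YAP KO TAZ HET livers (7 to 10 up, 36 to 40 down). Left out together, a choice made after seeing the data, LM225 and LM230 gave 48. The ratio of summed TPM was 0.415 in YAP KO livers after scaling, and 0.371 and 0.390 without Cyp2e1 and Cyp3a11, also chosen after seeing the data; leaving out a liver gave 0.507 to 0.562 and 0.486 to 0.590. No named member past the threshold reversed. Among named members past the threshold, 28 of 32 kept their call under every alternative in YAP KO livers and 26 of 35 in YAP KO TAZ HET livers. Cyp2a5 gained a call in YAP KO livers without LM74 or LM191 and under other filters. Calls lost in YAP KO livers were Cyp2a4 (without LM193, and with robust shrinkage), Cyp2d26 (quantile), Cyp3a59 (without LM192, LM193, LM189 or LM191, or a filter) and Cyp4b1 (without LM189, LM191 or scaling), and in YAP KO TAZ HET livers Cyp2a4 and Cyp2a5 (without any liver but LM225, without a filter, and with quantile normalization or robust shrinkage; Cyp2a5 also without scaling), Cyp2d12 (without LM227), Cyp2d26 (quantile), Cyp2r1 (without any liver but LM227, without a filter or without scaling), Cyp3a41b (without LM226, or robust shrinkage), Cyp4a12b (without LM226 or LM227), Cyp4a14 and Cyp4a31 (without LM251). With a liver left out, the adjusted p of the lost calls lay between 0.0524 and 0.0997 in YAP KO livers and between 0.0513 and 0.129 in YAP KO TAZ HET livers. Apart from what each alternative changes by construction, the cause was not tested. Without scaling the median of all genes moved from -0.03 to 0.28 and to 0.25, and that of the members to -0.74 and -0.90. No paired analysis was made, because the sample labels do not say which mice came from the same litter.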

Other observations

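Several genes known for the sex pattern of the liver were read after the P450 values had been seen, and are given as values. The growth hormone receptor Ghr stood at 176 to 218 TPM over WT livers and at 83.6 to 109 TPM over model livers, and Prlr, the prolactin receptor, at 51.1 to 58.7 and 20.3 to 30.6 TPM. Stat5b, which carries the growth hormone signal, stood at 17.3 to 25.6 and 27.9 to 40.9 TPM. Cux2, a repressor made in female liver, stood at 5.49 to 19.6 TPM over WT livers, at 2.55 to 6.23 TPM in YAP KO livers against 11.4, 2.80 and 2.60 TPM in the YAP KO TAZ HET livers, where the first value is that of LM225. Onecut1, the gene of HNF6, stood at 13.6 to 16.5 TPM in WT (C57BL/6) and 3.55 to 7.58 TPM in YAP KO livers, and at 4.25 to 18.3 TPM in WT (mixed) and 1.64 to 10.2 TPM in the YAP KO TAZ HET livers, which overlap. Bcl6, a repressor made in male liver, stood at 3.949 to 7.71 TPM in WT (C57BL/6) and 5.87 to 7.58 TPM in YAP KO livers, which overlap, and at 11.03 to 15.01 TPM in WT (mixed) and 3.83 to 10.8 TPM in the YAP KO TAZ HET livers.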
